A study of Mus musculus with 25 samples.

Results

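Collagen genes were described in dorsal root ganglia of 25 BXD mouse strains. The members were all rows of the deposited expression table whose gene symbol has the form Col, number, a, number and whose mean over the 25 libraries was at least 10. There were 42 such genes among 16220 rows, and no row of that symbol form fell under the minimum. Col9a1, Col17a1 and Col21a1 were not analysed here.

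Dorsal root ganglia hold the cell bodies of sensory neurons, and also satellite glia, Schwann cells, blood vessels, and a connective tissue capsule that continues into the meninges. The BXD strains are recombinant inbred lines from a cross of the C57BL6/J and DBA2/J strains, so a locus carries the allele of 1 parent. All mice were 8 weeks old. The libraries fell into 9 strains whose names end in RwwJ (BXD44, BXD48, BXD55, BXD60, BXD68, BXD73, BXD77, BXD87 and BXD89) and 16 whose names end in TyJ (BXD1, BXD2, BXD5, BXD6, BXD9, BXD11, BXD13, BXD14, BXD15, BXD16, BXD21, BXD28, BXD34, BXD36, BXD40 and BXD42). The ending is the code of the laboratory that bred the line. Each strain had 1 library, so the difference between strains and the difference between 2 dissections cannot be told apart. The labels used here state neither sex nor how many animals a library holds.

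Collagens are extracellular proteins built of chains that wind into a triple helix, and each gene encodes 1 chain. Fibrillar collagens such as types I, III and V assemble into the fibrils of connective tissue, which in peripheral nerve fill the endoneurium and the outer sheaths. Type IV collagen forms the network of basement membranes, which surround Schwann cells, satellite glia and capillaries, and types XV and XVIII attach to them. Types II, IX, X and XI are the collagens of cartilage. Type VI forms beaded filaments, the FACIT types sit on the surface of fibrils, and a few types span the cell membrane.

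Values are whole numbers with a common upper quartile in all libraries, called scaled counts here and taken to be read counts that the authors scaled and rounded. Their totals ran from 24637919 to 26860283 per library, and the reads behind them, estimated in the 23 libraries where the spacing of low values was clear, from 20000000 to 40100000. Counting error made up less than 5% of the variance between strains for 24 of the 42 members, and more than 20% for 6: Col10a1 with 91.1%, Col6a4 with 28.8%, Col13a1 with 26.6%, Col4a6 with 26.1%, Col4a4 with 24.1% and Col20a1 with 21.2%. These shares are approximate and too high for low genes. The counting error was that of log2 of the value over the 23 libraries. It was set against the variance of log2(value + 1) over the 25 strains. Each of the 10 sensory neuron markers was found in each library, from 1413 scaled counts for Isl1 upward. Some libraries stood apart. BXD55 had the highest sum over meningeal marker genes, 188658 scaled counts, and BXD21 the lowest, 6260. Ptgds made up most of both sums, with 175354 and 4469. The mean log2 level of these genes, used in the tests below, spanned 9.03-fold and was lowest in BXD6. BXD48 had a summed level of spinal cord markers of 26833, against a median of 6915 over all strains, and BXD60 of skeletal muscle markers of 53782, against 7976. These medians lean on 1 gene each that was high in every library. Mal2 had a median of 5535 and a minimum of 3036 scaled counts, and Pvalb 3350 and 2159. Of the other spinal cord markers, Slc1a2 had 7308 in BXD48 (median 226) and Slc6a5 1502 (median 6). BXD16 was the highest strain for 6 collagen genes and the lowest for 5, counts that were not made over all genes. Values or numbers called without such a library are given below for part of the calls that moved.

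Fibrillar collagens made up the largest part of collagen RNA. Per kb of exon, the 8 fibrillar genes summed to 4032 scaled counts, which was 49.1% of the sum over the 42 genes. The 6 beaded filament genes followed with 16.9%, the 8 basement membrane genes with 14.6%, the 5 genes outside these classes with 7.57%, the 6 FACIT genes with 6.37%, the 6 cartilage genes with 3.02% and the 3 transmembrane genes with 2.47%. Col1a1, a chain of type I collagen, had the highest mean level, 1328 scaled counts per kb. Col3a1, the chain of type III, had 1099 and Col1a2, the other chain of type I, 944. Col6a1, a chain of type VI, came next with 835. The lowest level was that of Col6a4, 2.34 scaled counts per kb. Exon length was taken over all annotated transcripts of a gene, and the order of genes depends on it. Before division by length, the means were 11732 scaled counts for Col1a2, 10786 for Col3a1, 8716 for Col1a1, 3657 for Col6a1 and 3484 for Col6a2. No member was at 0 in any strain.

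Within the basement membrane class the chains of the ubiquitous type IV network were far above those of the specialised networks. Col4a1 had 395 and Col4a2 323 scaled counts per kb. The chains known best from kidney glomerulus, Col4a3 and Col4a4, had 7.26 and 7.20, Col4a5 had 23.4 and Col4a6 had 2.89. Col15a1 and Col18a1, whose protein is the source of endostatin, had 308 and 131.

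The cartilage class did not have a common level. Col9a2, a chain of the type IX collagen that coats cartilage fibrils, had 161 scaled counts per kb. Its partner Col9a3 had 12.7, Col11a1 and Col11a2 had 35.5 and 24.3, and Col2a1, which encodes the main fibril of cartilage, had 11.4. Col10a1, the collagen of hypertrophic cartilage, had 3.68. Col9a2 was thus above Col2a1 by more than the range of either gene over strains, with 346 to 704 scaled counts and an exon length of 3.10 kb for Col9a2, against 39 to 228 scaled counts over 9.24 kb for Col2a1.

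**Figure D1:**
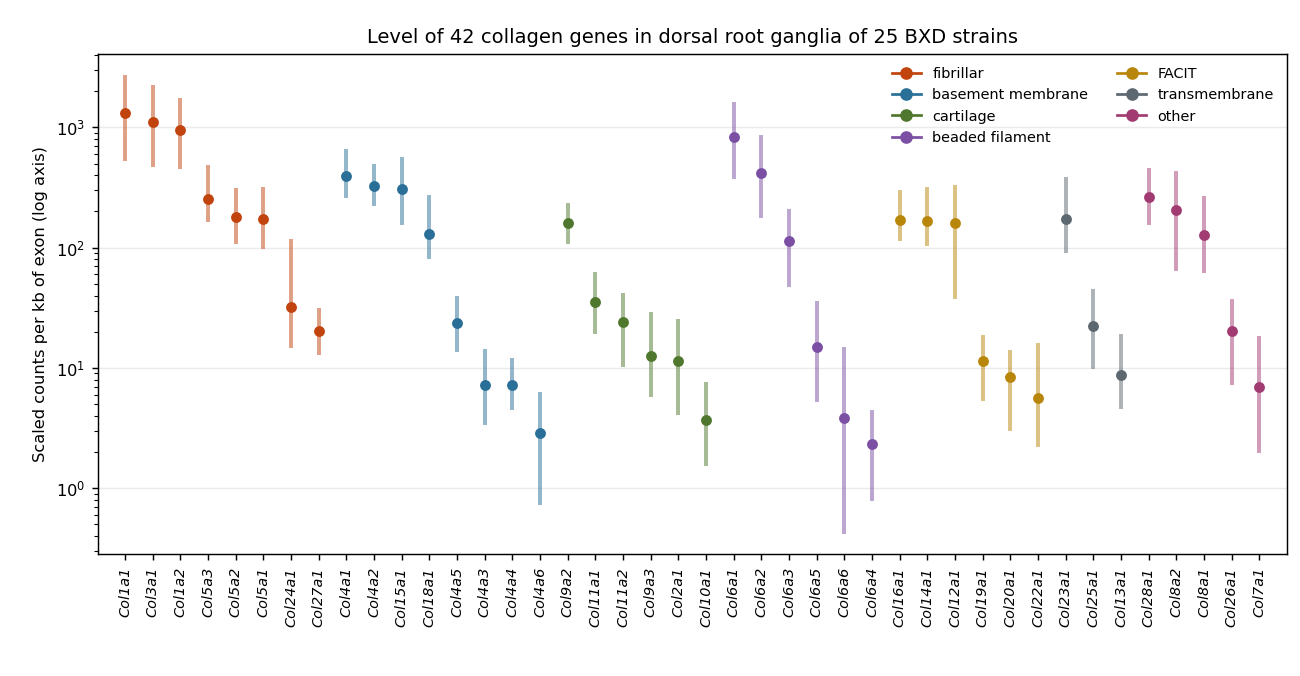
Mean level of the 42 collagen genes as scaled counts per kb of exon, on a log axis, by class; bars run from the lowest to the highest of the 25 strains. Col1a1, Col3a1 and Col1a2 lead, and Col9a2 stands above the other cartilage genes.

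In the other classes, Col6a1 led the beaded filament genes per kb, with Col6a2 at 418 and Col6a3 at 113. Before division by length, Col6a1 and Col6a2 were close, with means of 3657 and 3484 scaled counts. Col28a1, a type VI relative that is known from the basement membranes around Schwann cells, had 261, and the type VIII chains Col8a2 and Col8a1 had 206 and 126. Col16a1 with 171, Col14a1 with 168 and Col12a1 with 160 led the FACIT collagens. Col23a1 led the transmembrane collagens with 172.

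The spread of collagen genes over strains had a median above that of all genes. The SD of log2(value + 1) over the 25 strains had a median of 0.48 over the 42 members, against 0.25 over all 16152 genes that reached the same minimum. It was 0.44 for fibrillar, 0.37 for basement membrane, 0.49 for cartilage and 0.63 for beaded filament genes. The steadiest member was Col9a2 (0.29) and the most variable Col6a6 (1.18), a beaded filament chain of low level.

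Among the fibrillar genes, Col1a1 ran from 5792 to 17255 scaled counts with a median of 7331 in the RwwJ strains, and from 3581 to 15466 with a median of 7865 in the TyJ strains. The groups overlapped over most of their range, with BXD55 highest and BXD16 lowest. Col24a1, a minor fibrillar collagen known from developing bone and cornea, was the most variable of the class. It ran from 159 to 369 with a median of 253 in the RwwJ strains, and from 116 to 870 with a median of 168.5 in the TyJ strains. BXD16 had 870 scaled counts of Col24a1, and the next strain, BXD14, had 474.

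Among the basement membrane genes, Col4a1 ran from 1998 to 4136 scaled counts with a median of 2481 in the RwwJ strains, and from 2227 to 4703 with a median of 3178 in the TyJ strains. BXD55 lay well above the other RwwJ strains and inside the range of the TyJ strains. Col4a6 ran from 9 to 48 with a median of 20 in the RwwJ strains, and from 6 to 31 with a median of 22.5 in the TyJ strains.

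Among the cartilage genes, Col9a2 ran from 346 to 700 scaled counts with a median of 482 in the RwwJ strains, and from 360 to 704 with a median of 505.5 in the TyJ strains, almost the same range. Col2a1 ran from 43 to 182 with a median of 81 in the RwwJ strains, and from 39 to 228 with a median of 103.5 in the TyJ strains. BXD1 and BXD2 were the highest strains for Col2a1, with 228 and 215.

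Among the beaded filament genes, Col6a1 ran from 2796 to 6892 scaled counts with a median of 3131 in the RwwJ strains, and from 1680 to 6378 with a median of 3396 in the TyJ strains. BXD55 was highest, and the 4 lowest values were all in TyJ strains. Col6a6 ran from 11 to 103 with a median of 44 in the RwwJ strains, and from 4 to 131 with a median of 21 in the TyJ strains. BXD1 had 131, and the 2 groups overlapped.

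**Figure D2:**
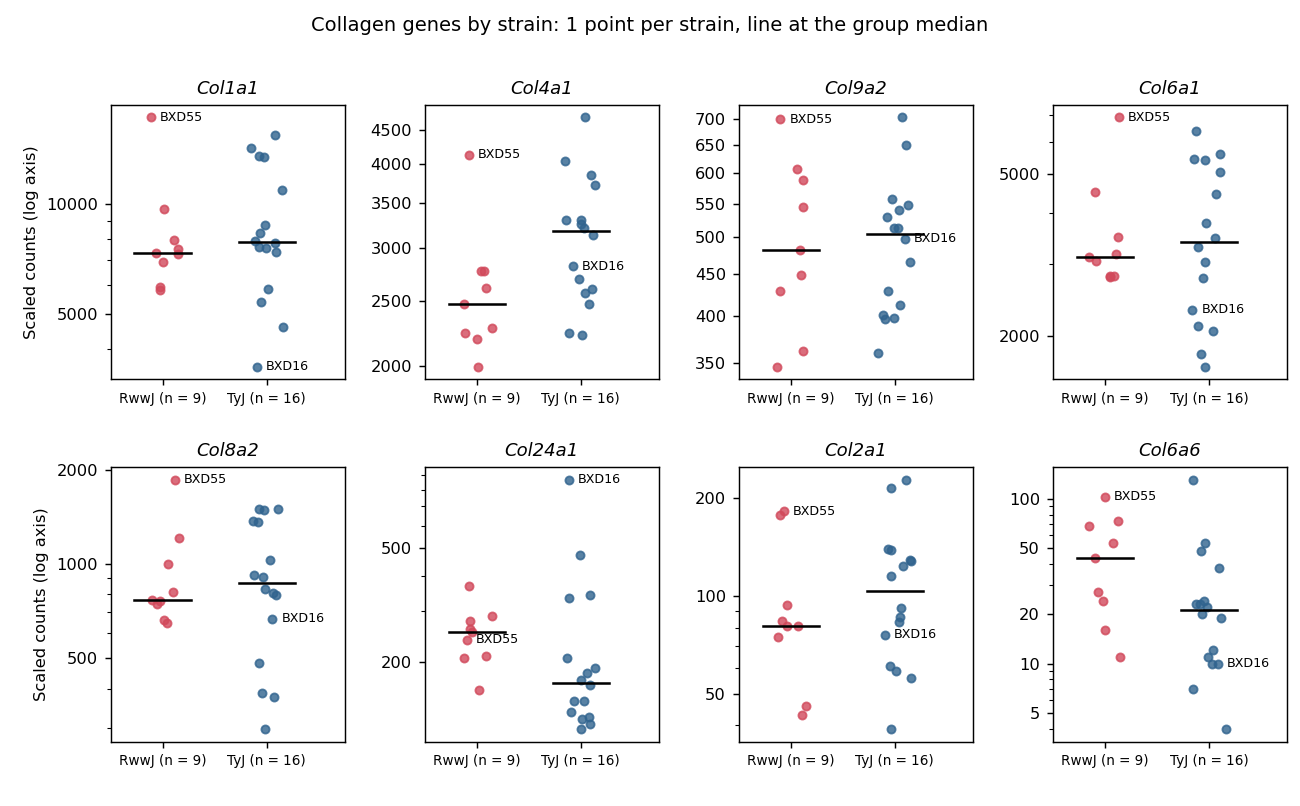
Scaled counts of 8 collagen genes on log axes, 1 point per strain, with the 9 RwwJ strains left of the 16 TyJ strains and a line at each median. BXD55 is the highest RwwJ strain for Col1a1, Col4a1, Col9a2, Col6a1, Col8a2, Col2a1 and Col6a6, and BXD16 has the highest Col24a1 (870) and the lowest Col1a1 (3581).

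In the other classes, Col12a1, a FACIT collagen of dense connective tissue, ran from 1461 to 3939 with a median of 2587 scaled counts in the RwwJ strains, and from 596 to 4852 with a median of 2365 in the TyJ strains. Col16a1 ran from 848 to 1350 with a median of 967 in the RwwJ strains, and from 793 to 1967 with a median of 1139 in the TyJ strains. Both genes had their widest spread among the TyJ strains. Col23a1 ran from 609 to 2125 in the RwwJ strains, where BXD55 was highest, and from 534 to 1517 in the TyJ strains. Col25a1, a membrane collagen made by neurons, ran from 194 to 434 in the RwwJ strains and from 131 to 566 in the TyJ strains. Col7a1, the collagen of the anchoring fibrils of skin, ran from 51 to 103 in the RwwJ strains and from 21 to 181 in the TyJ strains, with BXD16 again highest. Col28a1 ran from 879 to 1746 in the RwwJ strains and from 787 to 2151 in the TyJ strains, and was highest in BXD40, a strain that was lowest for 7 other collagen genes.

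Some libraries were the highest or the lowest for several members. BXD55 was the highest strain for 13 of the 42 genes, among them Col1a1, Col1a2, Col6a1, Col6a2, Col4a2 and Col8a2. BXD21 was the lowest strain for 9 and BXD40 for 7. These counts were not made over all genes, so no share stands beside them. Many members move together over strains, so they are not separate observations. The summed collagen level was 112266 scaled counts in BXD55, 0.456% of its total, and 42721 in BXD40, 0.161% of its total. In bulk tissue, fewer cells of a type and less RNA per cell cannot be told apart.

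Promoters are shown for 3 pairs of genes whose chains join in 1 molecule: a pair whose windows overlap, and the listed pairs with the highest and the lowest correlation over strains. Col4a1 and Col4a2 are a head-to-head pair on chromosome 8. Promoter windows run from 250 bases before to 50 bases after the start, credited to RefSeq on GRCm38.p6, and 33 of the 42 members had one. The windows of Col4a1 (chr8:11312777-11313076, minus strand) and Col4a2 (chr8:11312555-11312854, plus strand) overlap by 78 bases, chr8:11312777-11312854, which stand in capitals and are the reverse complement of each other. The annotated genes overlap at their starts, and the library kit does not mark the strand, so reads in the overlap cannot be assigned to 1 gene.
Col4a1: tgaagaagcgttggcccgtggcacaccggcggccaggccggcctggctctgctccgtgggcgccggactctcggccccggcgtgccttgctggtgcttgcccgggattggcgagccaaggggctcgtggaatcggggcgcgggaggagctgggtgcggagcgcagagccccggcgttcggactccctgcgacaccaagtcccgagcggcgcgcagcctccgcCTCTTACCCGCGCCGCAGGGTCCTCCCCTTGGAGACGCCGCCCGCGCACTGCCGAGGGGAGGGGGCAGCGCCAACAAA
Col4a2: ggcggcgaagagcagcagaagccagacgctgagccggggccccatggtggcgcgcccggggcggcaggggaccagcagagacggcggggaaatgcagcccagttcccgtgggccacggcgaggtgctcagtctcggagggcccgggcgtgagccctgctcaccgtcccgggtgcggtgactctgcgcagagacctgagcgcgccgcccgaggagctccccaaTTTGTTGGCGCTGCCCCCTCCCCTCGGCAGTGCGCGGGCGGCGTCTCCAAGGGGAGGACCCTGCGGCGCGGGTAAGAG

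Col6a1 and Col6a2 lie on chromosome 10 on the same strand, each with a promoter of its own, and had the highest correlation of the listed pairs. The windows shown are chr10:76725995-76726294 and chr10:76623355-76623654, both on the minus strand. Capitals mark 3 motifs searched on both strands, and overlapping copies run together. The letters of the GC box, GGGCGG, stood in 35.7% of all 32851 promoter windows and in 23 of the 35 windows of collagen genes. Those of the CCAAT box were found in 37.4% of all windows and in 11 of the 35. Those of the TATA box, TATAAA, were found in 13.6% of all windows and in 4 of the 35. The window of Col6a1 held none of the 3 motifs, and the window shown for Col6a2 held the GC box 3 times. Col6a2 had 2 windows, and the other is not shown.
Col6a1: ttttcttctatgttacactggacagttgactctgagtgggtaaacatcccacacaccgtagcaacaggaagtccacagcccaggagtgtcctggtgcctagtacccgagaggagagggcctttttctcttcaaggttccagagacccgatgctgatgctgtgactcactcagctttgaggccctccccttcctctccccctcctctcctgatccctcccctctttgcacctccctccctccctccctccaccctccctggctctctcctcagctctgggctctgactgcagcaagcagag
Col6a2: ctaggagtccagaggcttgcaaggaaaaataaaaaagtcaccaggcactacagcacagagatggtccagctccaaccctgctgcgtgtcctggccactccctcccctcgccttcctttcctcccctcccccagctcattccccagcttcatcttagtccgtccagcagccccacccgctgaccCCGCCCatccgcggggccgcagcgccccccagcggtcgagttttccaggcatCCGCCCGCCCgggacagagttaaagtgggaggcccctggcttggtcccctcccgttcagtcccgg

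Col11a1 and Col11a2 encode chains that pair in type XI collagen and had the lowest correlation of the listed pairs. Their windows are chr3:114030290-114030589 and chr17:34038888-34039187, both on the plus strand, with the same motifs in capitals. Both held the GC box 2 times, Col11a1 the CCAAT box once and Col11a2 the TATA box once. A match of letters is a description of the window and not a site.
Col11a1: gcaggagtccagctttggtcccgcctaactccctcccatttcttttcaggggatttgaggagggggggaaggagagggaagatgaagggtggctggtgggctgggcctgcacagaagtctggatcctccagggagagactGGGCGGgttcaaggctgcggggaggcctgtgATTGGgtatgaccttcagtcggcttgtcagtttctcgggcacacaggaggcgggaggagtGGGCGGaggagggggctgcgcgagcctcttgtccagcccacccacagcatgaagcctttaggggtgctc
Col11a2: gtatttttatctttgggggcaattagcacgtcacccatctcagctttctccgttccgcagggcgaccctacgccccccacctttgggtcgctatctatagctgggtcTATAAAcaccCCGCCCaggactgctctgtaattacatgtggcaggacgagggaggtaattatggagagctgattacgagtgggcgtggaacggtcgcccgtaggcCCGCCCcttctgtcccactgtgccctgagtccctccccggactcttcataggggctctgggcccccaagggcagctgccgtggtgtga

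Many collagen genes moved together over strains. Pearson's r of log2(value + 1) over the 25 strains was tested for all 861 pairs of members with 100000 two-sided permutations of the strains, with Benjamini-Hochberg adjustment over the 861, and a pair with an adjusted p under 0.05 was counted as called. Of the 861 pairs, 217 were called with a positive r and 3 with a negative r. At the same limits of r, 7.67% of all pairs among the 16152 genes were positive and 6.83% negative, against 25.2% and 0.348% of the collagen pairs. The median r was 0.24 over collagen pairs and 0.003 over all pairs. By Spearman's rho, 189 pairs were called positive and 1 negative, that of Col15a1 and Col24a1. Without BXD55 the number called in either direction was 151, against 220 with it. All points share the scaling of a library, so a library with more connective tissue enters every pair.

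Of 24 listed pairs, whose chains share a molecule or a fibril or belong to the same or a related type, 21 had both genes in the table, and 16 were called. Without the 2 strains farthest from the median of the first gene, r of the 16 pairs ran from 0.423 for Col15a1 and Col18a1 to 0.966 for Col6a1 and Col6a2. The 2 chains of type I collagen, Col1a1 and Col1a2, had r = 0.966 (rho 0.924, both p = 1e-05, the smallest that the permutations can give, adjusted p 0.000205 and 0.000287). Within groups it was 0.980 over the RwwJ strains and 0.968 over the TyJ strains, and 0.947 without BXD55 and BXD16. Col3a1 followed Col1a1 with r = 0.933 (rho 0.859, adjusted p 0.000205 and 0.000287). The 2 genes lie on chromosomes 1 and 11. Col5a1, a chain of the type V collagen that sets fibril width, had r = 0.815 with Col1a1 (rho 0.795, adjusted p 0.000205 and 0.000287) and 0.768 with Col5a2 (rho 0.672, adjusted p 0.000461 and 0.00492). All 5 genes are parts of the same heterotypic fibrils.

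In the basement membrane class, Col4a1 and Col4a2 had r = 0.953 (rho 0.942, adjusted p 0.000205 and 0.000287), with 0.965 over the RwwJ strains and 0.953 over the TyJ strains. Col4a3 and Col4a4, also neighbours that start head to head, had r = 0.701 (rho 0.708, adjusted p 0.00116 and 0.00189). Col4a5 and Col4a6, placed likewise on the X chromosome, had r = 0.603 (rho 0.564, adjusted p 0.00788 and 0.0209), and their promoter windows stand 842 bases apart. Pairs of the low genes carry the larger counting errors given above. Col4a1 and Col4a5, chains of separate networks, had r = 0.481 and were not called (adjusted p 0.0554; rho 0.530, adjusted p 0.0379); without BXD48, r was 0.673 and the pair was called (adjusted p 0.00234). Col15a1 and Col18a1 had r = 0.523 (adjusted p 0.0311; rho 0.482, adjusted p 0.0653), and the call was lost without BXD1, BXD42, BXD55 or BXD60, with r from 0.449 upward.

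The 3 main type VI chains moved together. Col6a1 and Col6a2 had r = 0.975 (rho 0.970), Col6a1 and Col6a3 0.910 (rho 0.902), and Col6a2 and Col6a3 0.889 (rho 0.886), each with adjusted p 0.000205 for r and 0.000287 for rho. Within groups these 3 values ran from 0.885 to 0.978. Col6a5 and Col6a6, neighbours on chromosome 9, had r = 0.792 with each other (rho 0.691, adjusted p 0.000205 and 0.00239). No pair of Col6a4 was called, with r of at most 0.261. The type VIII chains Col8a1 and Col8a2, known from vessel walls and the inner membrane of the cornea, had r = 0.886 (rho 0.932), and Col6a1 had r = 0.944 with Col8a2 (rho 0.919) and 0.931 with Col8a1 (rho 0.937). Col12a1 had r = 0.909 with Col8a2 (rho 0.860). Adjusted p was 0.000205 for r and 0.000287 for rho in each of these 4 pairs.

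Pairs of cartilage collagens lacked the excess of positive calls seen over all collagen pairs. Of the 15 pairs within the class, 1 was called positive and none negative. At the same limits of r, 7.67% of all gene pairs were positive and 6.83% negative. The median r of the class was 0.0026, against 0.003 over all gene pairs. Counting error pulls r toward 0, and it made up 91.1% of the variance of Col10a1 and 19.45% of that of Col9a3. It was 5.16% for Col2a1, 3.90% for Col11a1, 5.85% for Col11a2 and 5.23% for Col9a2. Its part in the class median was not tested. The pair called was that of Col11a2 and Col9a3 (r = 0.583, rho 0.577, adjusted p 0.0123 and 0.0197). Both genes were highest in BXD48, the strain with the highest spinal cord markers: Col11a2 had 280 scaled counts there and Col9a3 109. With the spinal cord score they had r = 0.451 and 0.515. Without BXD48 the pair had r = 0.504 (adjusted p 0.0466), and the part of spinal cord tissue in it was not tested. Col2a1 and Col11a1, which build the same cartilage fibril, had r = -0.0064 (adjusted p 0.987). Col2a1 and Col11a2 had r = -0.013 (adjusted p 0.977) and Col11a1 and Col11a2 r = -0.0165 (adjusted p 0.969). Col9a2 and Col9a3 had r = 0.286 (adjusted p 0.335). The signs of these values are not stable under other settings. The best partners of 3 cartilage genes lay in other classes: Col15a1 for Col2a1 (r = 0.768, rho 0.746, adjusted p 0.000461 and 0.00084), Col5a3 for Col11a1 (r = 0.651) and Col20a1 for Col9a2 (r = 0.554, rho 0.523, adjusted p 0.0219 and 0.0399).

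Col2a1 was looked at as a set with Col15a1 and Col26a1, a collagen first described in testis and ovary. The set is not closed: over all members, positive calls numbered 10 for Col15a1, 6 for Col26a1 and 5 for Col2a1. Col15a1 and Col26a1 had r = 0.844 (rho 0.790, adjusted p 0.000205 and 0.000478) and Col26a1 and Col2a1 r = 0.701 (rho 0.758, adjusted p 0.0009 and 0.000478). The set was chosen after its values were seen. Leaving out BXD55, or BXD16, or the 3 strains BXD21, BXD36 and BXD40, gave 0.679 to 0.849 for the 3 pairs. BXD1 or BXD2 was the highest strain for each of the 3 genes. Without both, r was 0.796 for Col15a1 and Col26a1 (adjusted p 0.000492), 0.670 for Col15a1 and Col2a1 (adjusted p 0.00523) and 0.609 for Col26a1 and Col2a1 (adjusted p 0.0120), all called.

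Col24a1 was called with minor collagens and not with the main fibrils. Its r was -0.388 with Col1a2, the lowest of the fibrillar class and not called (adjusted p 0.150), and -0.505 with Col15a1 (rho -0.531, adjusted p 0.0410 and 0.0349), 1 of the 3 negative calls. It was called positive with Col7a1 (r = 0.834, rho 0.847, adjusted p 0.000205 and 0.000287) and Col5a3 (r = 0.755, rho 0.590, adjusted p 0.000565 and 0.0158). Col16a1 (r = 0.615) and Col11a1 (r = 0.582) were called by r and not by rho, with adjusted p of 0.0940 and 0.0853 for rho.

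BXD16 weighed on these values. Without BXD16, Col24a1 kept r = 0.804 with Col7a1 (adjusted p 0.000191) and 0.644 with Col5a3 (adjusted p 0.00541), and it lost its calls with Col16a1 (r = 0.454, adjusted p 0.0838), Col11a1 (r = 0.422, adjusted p 0.116) and Col15a1 (r = -0.361, adjusted p 0.202). Without BXD14, BXD16 and BXD28, r with Col7a1 was 0.749 (adjusted p 0.000812) and r with Col5a3 0.464 (adjusted p 0.0895). With Col7a1 it was 0.582 over the RwwJ strains and 0.849 over the TyJ strains. With Col5a3 it was 0.117 over the RwwJ strains and 0.919 over the TyJ strains, and the difference between the groups was not tested. BXD16 also had a high summed level of skeletal muscle markers, 37002 scaled counts, while no collagen gene was called with the muscle score. The part of dissection in the level of Col24a1 was not tested.

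Many collagen genes followed markers of the meninges and of fibroblasts. Each member was compared over strains with the mean log2(value + 1) of 10 lists of cell type markers, 420 relations adjusted together. With the meningeal score (8 genes, among them Aldh1a2, Slc6a13 and Ptgds), 21 of the 42 members were called positive and none negative, against 10.3% and 7.92% of all other genes at the same limits of r. By Spearman's rho, 19 were called. Col8a2 led with r = 0.920 (rho 0.882, adjusted p 0.000525 and 0.00105), followed by Col6a2 with 0.894 (rho 0.880), Col6a1 with 0.862 (rho 0.845) and Col12a1 with 0.833 (rho 0.784). Col8a2 had r of 0.931 over the RwwJ strains and 0.920 over the TyJ strains, and 0.903 without BXD6 and BXD21, the 2 strains farthest from the median score. Without them, r of the 21 members ran from 0.442 upward. No meningeal marker was at 0 in any strain, and the summed level ran from 31477 to 188658 in the RwwJ strains and from 6260 to 109053 in the TyJ strains. Ptgds, with a median of 46643 scaled counts, was the largest part of these sums.

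Of the 42 members, 17 were called with the meningeal score without BXD55, and 17 without BXD21, BXD36 and BXD40, 3 strains of low score. Col1a1 was called with all strains (r = 0.550, rho 0.522, adjusted p 0.0239 and 0.0493) and not without BXD55 (r = 0.456, adjusted p 0.104). Col6a2 had 0.875 and Col12a1 0.831 without BXD55 (adjusted p 0.0007 each). Col24a1 had r = 0.25 with the score and was not called.

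**Figure D3:**
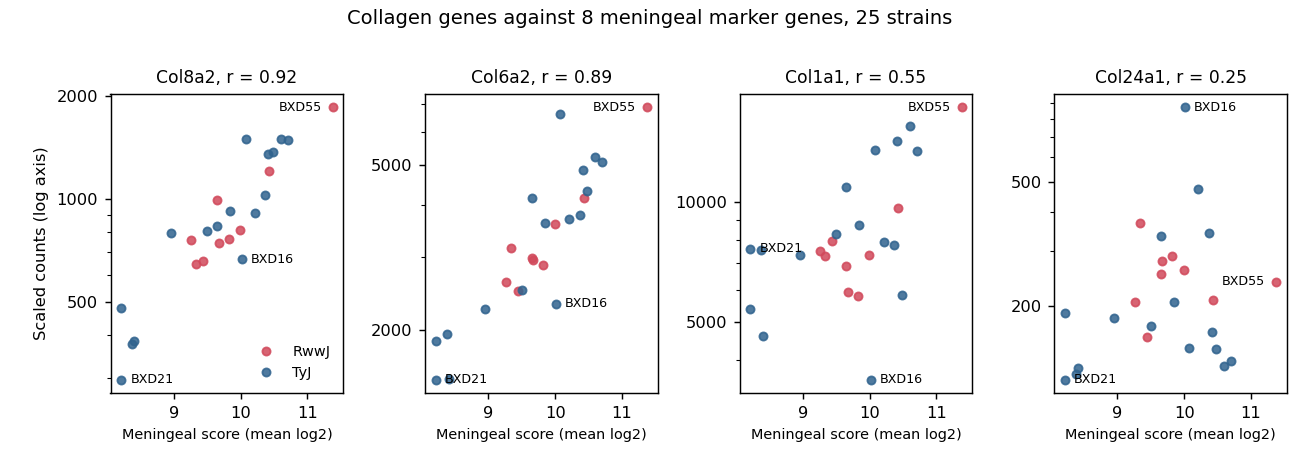
Scaled counts (log axis) of Col8a2, Col6a2, Col1a1 and Col24a1 against the meningeal score, the mean log2(value + 1) of 8 marker genes, in 9 RwwJ and 16 TyJ strains. Col8a2 is lowest in BXD21 (297 scaled counts) and highest in BXD55 (1858), near the ends of the score, and Col24a1 shows no such order (r = 0.25).

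With the fibroblast score, 19 members were called positive and none negative, against 9.81% and 6.25% of other genes, and 16 were called by rho and 14 without BXD55. Without BXD21, BXD36 and BXD40, 14 were called positive and 2 negative, Col24a1 (r = -0.660, adjusted p 0.0134) and Col7a1 (r = -0.624, adjusted p 0.0246). Col6a1 led (r = 0.751, rho 0.646, adjusted p 0.00229 and 0.0103), and Col1a1 had r = 0.700 (rho 0.613, adjusted p 0.00245 and 0.0167). Dcn and Lum, in that list, are also made by meningeal cells, and the 2 scores had r = 0.51 with each other. With the score of endothelial and mural cells, 12 members were called positive and none negative, against 10.2% and 5.72%, led by Col4a1 (r = 0.643, rho 0.624, adjusted p 0.00666 and 0.0142). The number was 8 without BXD55 and 7 without BXD21, BXD36 and BXD40. That score had r = 0.869 with the fibroblast score, so collagen cannot be assigned to either from these values.

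Markers of bone cells had 13 members called positive and none negative, against 5.90% and 3.15% of other genes, with Col1a1 first (r = 0.704, rho 0.638, adjusted p 0.00323 and 0.0121), with 6 called by rho, 6 without BXD55 and 5 without BXD1 and BXD2. The bone cell markers differed in level. Bglap had a median of 10 scaled counts and was at 0 in 1 strain. The medians were 9 for Sp7, 22 for Dmp1, 35 for Phex, 162 for Ibsp and 404 for Alpl. With the cartilage cell score, 12 members were called positive and none negative, against 10.1% and 10% of other genes, but 1, Col25a1, by rho and none without BXD21, BXD36 and BXD40. None of the 6 cartilage collagens was among the 12; Col2a1 had r = 0.0771 (adjusted p 0.822) and Col11a1 r = 0.334 (adjusted p 0.220). Acan, the core proteoglycan of cartilage, had a median of 27 scaled counts. The other medians of that list were 85 for Sox9, 286 for Chad, 372 for Matn4, 484 for Cnmd, 707 for Comp and 840 for Hapln1.

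Sensory neuron markers ran the other way. With their score, 16 members were called negative and none positive, against 10.1% and 6.82% of other genes. Col4a5 had r = -0.802 (rho -0.830, adjusted p 0.000525 and 0.00168) and Col8a2 -0.760 (rho -0.686, adjusted p 0.000933 and 0.0084). The number was 11 without BXD55 and 4 without BXD21, BXD36 and BXD40, and Col4a5 had r = -0.760 and -0.759 in that order. Values are relative within a library, so more RNA from connective tissue and less from neurons cannot be told apart. With Schwann cell markers Col9a3, Col23a1, Col22a1 and Col4a2 were called positive and none negative, against 1.55% and 0.799%, and none without BXD55, without BXD60 or without BXD21, BXD36 and BXD40. With satellite glia markers, Col24a1 was called negative (r = -0.630, rho -0.699, adjusted p 0.00666 and 0.0056) and no other member, against 6.09% of other genes called negative and 4.92% positive, and the call was lost without BXD21, BXD36 and BXD40. That score was highest in BXD48 and had r = 0.61 with the spinal cord score. Kcnj10, Glul, Gja1 and Slc1a3 were highest in BXD48, where Fabp7 was lowest. Without BXD48, 1 member was called positive and 2 negative. The part of spinal cord tissue in this score was not tested. With spinal cord markers Col9a3 was called positive, and Col11a1 and Col5a2 negative, against 6.50% and 4.97%. By rho, Col11a1 was called (rho -0.540, adjusted p 0.0408), and Col9a3 (rho 0.414, adjusted p 0.130) and Col5a2 (rho -0.425, adjusted p 0.120) were not. Without BXD48, the strain highest in these markers, Col9a3 had r = 0.362 (adjusted p 0.188) and Col5a2 -0.398 (adjusted p 0.139), both not called, and Col11a1 had -0.554 (adjusted p 0.0251). No member was called with skeletal muscle markers, against 1.41% and 0.750%.

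Genes that make, bind and break down collagen followed Col1a1. This comparison, added after the values were seen, used lists of the pathway and 126 relations adjusted together, with Col1a1 and with Col24a1. At the same limits of r, 7.80% of all other genes were positive and 4.17% negative with Col1a1, and none of the pathway genes was called negative. Of 30 genes for processing of the procollagen chain, 18 were called positive, and 16 without BXD55. Pcolce, the enhancer of the enzyme that trims the C-terminal end, had r = 0.881 (rho 0.785, adjusted p 0.00021 and 0.00063), and Adamts2, which trims the N-terminal end, 0.856 (rho 0.770, adjusted p 0.00021 and 0.00063). Serpinh1, the collagen chaperone Hsp47, had r = 0.763 (rho 0.764, adjusted p 0.00021 and 0.00063). Without BXD55 and BXD16 the 3 values were 0.829, 0.805 and 0.733 in that order. Lox, which crosslinks fibrils, had r = 0.336 and was not called (adjusted p 0.195).

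Of 14 genes whose proteins bind fibrils, 11 were called, and 9 without BXD55. Thbs2 led with r = 0.828 (rho 0.661, adjusted p 0.00021 and 0.00527). Of 10 genes of degradation and its inhibitors, 5 were called with and without BXD55: Mmp2, Mmp14, Timp1, Fap and Ctsk, a protease that cuts the helix (Ctsk r = 0.691, rho 0.678, adjusted p 0.000672 and 0.00476). By rho, Mmp14 was not called (rho 0.475, adjusted p 0.0535). Of 9 receptors, 3 were called: Mrc2, which takes up cleaved collagen (r = 0.776, rho 0.754, adjusted p 0.00036 and 0.00063), Ddr2, a receptor kinase for fibrillar collagen (r = 0.764, rho 0.676, adjusted p 0.000378 and 0.00527), and Itga11 (r = 0.558). Itga11 was not called by rho (rho 0.471, adjusted p 0.0541). Its call was lost without BXD16, where Itgb1 was called. With Col24a1 none was called positive, against 15.3% of other genes. The numbers called negative were 3 of 30, 3 of 14, 2 of 10 and 0 of 9, against 12.6%: Fkbp10, Crtap and Ppib, then Sparc, Dcn and Lum, then Ctsk and Fap. Without BXD16 the numbers were 1, 1, 0 and 0, and without BXD21, BXD36 and BXD40 they were 6, 5, 3 and 0.

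No collagen gene passed the test between the 2 groups of strains. The RwwJ strains were compared with the TyJ strains by limma on log2(value + 1) over all 16152 genes with Benjamini-Hochberg adjustment. It called 0 of the 42 members and 0 of all genes (0% called). With no adjustment, at p under 0.05, 3 of the 42 members passed against 15.1% of all genes: Col19a1 and Col6a5 were higher, against 6.19% of all genes, and Col4a1 lower, against 8.92%. A rank-sum permutation test called none after adjustment and 13.8% of all genes without it. The median difference over the members was 0.010 on the log2 scale, against -0.0047 over all genes, and 22 of 42 were above 0.

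The smallest p among the members was that of Col19a1, a FACIT collagen made by some neurons. It ran from 71 to 124 scaled counts with a median of 90 in the RwwJ strains, and from 38 to 111 with a median of 62 in the TyJ strains. The difference was 0.47 ± 0.17 on the log2 scale (SE; adjusted p 0.290 by limma), and 9 of 9 RwwJ strains were above the TyJ mean. Col4a1 had a difference of -0.27 ± 0.12 (SE, limma adjusted p 0.320), with 8 of 9 RwwJ strains below the TyJ mean and BXD55 above it. Col6a5 ran from 110 to 313 with a median of 143 in the RwwJ strains, and from 51 to 326 with a median of 118 in the TyJ strains, a difference of 0.52 ± 0.24 (SE, limma adjusted p 0.324). Col6a6 had a difference of 0.87 ± 0.45 (SE, limma adjusted p 0.347). Col10a1 ran from 5 to 20 with a median of 8 in the RwwJ strains, and from 7 to 23 with a median of 10.5 in the TyJ strains, a difference of -0.36 ± 0.21 (SE, limma adjusted p 0.390). The groups overlapped for each of these genes.

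The leading genes of the fibrillar and cartilage classes were close between groups. Col1a1 had a mean of 8406 ± 3508 scaled counts in the RwwJ strains (SD, n = 9) and 8890 ± 3593 in the TyJ strains (SD, n = 16), which differed by -0.05 ± 0.22 on the log2 scale (SE; adjusted p 0.927 by limma). Col9a2 had 501 ± 118 in the RwwJ strains and 495 ± 95.6 in the TyJ strains, which differed by 0.0060 ± 0.12 on that scale (SE; adjusted p 0.984 by limma). All 6 beaded filament genes had positive differences, from 0.04 for Col6a3 to 0.87 for Col6a6, and none passed. Over all genes, 7882 of 16152 were positive. Col6a1, Col6a2 and Col6a3 moved together over strains and are not separate observations. In scaled counts, Col6a1 and Col6a3 had means of 3633 and 1349 in the RwwJ strains, below the 3671 and 1359 in the TyJ strains. The other means of the class were higher in the RwwJ strains. The median of Col6a2 was 2979 in the RwwJ strains and 3662.5 in the TyJ strains. The fibrillar class had a median difference of -0.07 and the basement membrane class of -0.08. Marker lists also differed in their medians, with none of their genes called. The median was 0.66 for spinal cord (7 of 9 genes positive), 0.23 for meningeal (8 of 8), -0.17 for endothelial and mural (10 of 12 negative), -0.21 for Schwann cell (7 of 10 negative) and -0.51 for skeletal muscle markers (10 of 11 negative). Their part in the values of the collagen genes was not tested, for Col4a1 and the endothelial and mural markers included.

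**Figure D4:**
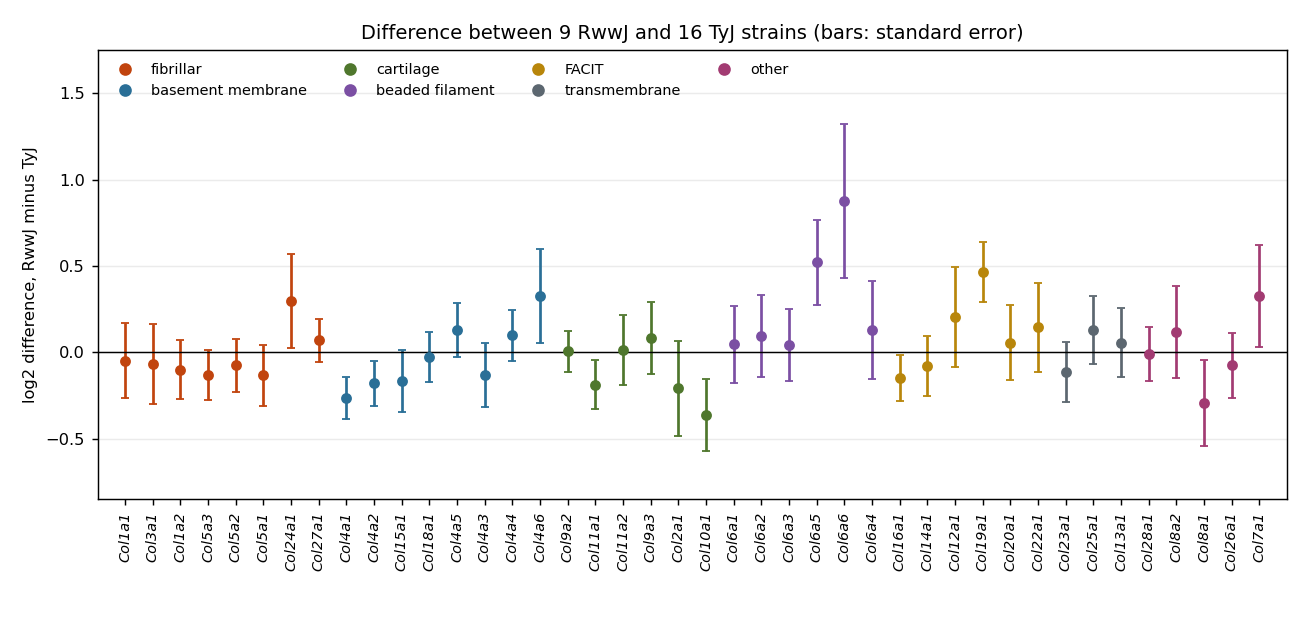
Log2 difference, RwwJ minus TyJ, with its standard error from limma for the 42 collagen genes, by class and level per kb. Col6a6 (0.87) and Col6a5 (0.52) stand highest and Col10a1 (-0.36) lowest, and no gene had an adjusted p under 0.05.

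In the lists of the collagen pathway no gene was called between the groups either: 0 of 30 for processing, 0 of 9 receptors, 0 of 14 that bind fibrils and 0 of 10 for degradation. At an unadjusted p under 0.05 by limma the numbers were 1, 1, 1 and 0 in that order, each gene lower in the RwwJ strains. Of all genes, 15.1% passed that limit in either direction and 8.92% were lower, so these lists did not stand out. The genes named next had the smallest p of their list. Ppib, a folding enzyme of the procollagen helix, had a log2 difference of -0.15 ± 0.07, Adamts3 0.21 ± 0.11, Itgb1 -0.12 ± 0.06, Itga1 -0.18 ± 0.12, Sparc -0.25 ± 0.12, Ogn -0.25 ± 0.14, Mmp8 -0.55 ± 0.38 and Ctsk -0.22 ± 0.21 (SE, limma), with adjusted p from 0.319 upward.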

How the data were processed

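Ribonucleic acid of dorsal root ganglia from 25 BXD strains was extracted with Trizol and made into TruSeq RNA v2 libraries, per the labels; that kit is not known to mark the strand. The submitters' processing notes name the tools CASAVA 1.8.0, TopHat2 2.0.9 and HTSeq, and NCBIM37 and mm9 as genome builds. The deposited table held a score per gene and strain: whole numbers that share an upper quartile and were not raw counts, so no count model was used. The scaling tool is not given in the sources used here.

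Symbols and exon lengths came from GENCODE M21 (GRCm38), where 15697 of 16220 identifiers matched, and promoters from RefSeq. No deposited column was left unmapped. Genes with a mean under 10 (68) were left out of tests, and 1 was added before log2. The test between groups was that of limma 3.58.1 (R 4.3.3). Relations over strains used permutations in Python 3.11.15. P-values measure the spread between these libraries, whose animals are not described. The limma fit, the permutations for Pearson's r and the estimate of reads were tried on simulated data first. The rank-sum test, Spearman's rho and the rule for a strain far from the others were not.

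The members and lists were chosen with earlier results of these data known. Named were, in each class, the gene highest per kb and the most variable; between groups, the 5 smallest p and the leading genes; in each pathway list, the 2 smallest p; and the listed pairs. Other pairs, strains, pathway genes named with Col1a1 and the Col4a1 and Col4a2 promoters were chosen after their values were seen. Alternatives were another pseudocount and filter, other scalings, array weights, each group alone and each strain left out.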

Additional observations from a re-analysis of the deposited data

Results flagged for a closer look

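In 7 of the 42 collagen genes, 1 strain of the RwwJ group lay far from the other 8, and it was BXD55 each time. Chance marks about 1 in 20 groups. Over all 16152 genes, 7.30% had an RwwJ strain that far from the others, and in 1.95% it was BXD55 on the high side. The 7 genes are not separate observations, since they share the library, and Col1a1 and Col3a1 had r = 0.933 over strains. Col1a1 had 17255 scaled counts in BXD55, and the next RwwJ strain had 9648. Col3a1 had 20208 against 10665 in the next strain, Col6a2 6884 against 4160, Col4a1 4136 against 2774, Col14a1 2140 against 1219, Col18a1 1835 against 907, and Col22a1 142 against 65. Col3a1 and Col4a1 of BXD55 were within the range of the TyJ strains, whose highest values were 21061 and 4703. The other 5 values were above every TyJ strain, and for Col18a1 the highest TyJ value was 1350. BXD55 also had the highest summed level of meningeal markers, and its part in these values was not tested.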

How the results depend on the processing

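Over all genes the group test called 6 with array weights and 0 to 3 with 1 strain left out, against 0; of the collagen genes it called 0 in all 33 alternatives. The pairs of collagen genes called were 220 as reported, 151 to 251 with 1 strain left out, 136 within the TyJ strains and 24 within the RwwJ strains, where 9 strains were left. The 101 relations with marker scores became 67 without BXD55 and 57 without BXD21, BXD36 and BXD40, alternatives chosen after seeing the data; in the second draw of permutations behind the numbers given per marker list, these totals were 68 and 56. Signs turned for weak values: with array weights the group difference of Col9a2 was -0.045. Scaling by library total gave r = 0.00376 for Col2a1-Col11a1 and 0.0323 for Col11a1-Col11a2. Within the TyJ strains r was 0.189 for Col11a1-Col11a2 and -0.0158 for Col9a2-Col9a3, and within the RwwJ strains 0.255 for Col2a1-Col11a2. The cause was not tested.

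With 1 strain left out, the difference of Col1a1 was -0.19 to 0.013, that of Col9a2 -0.059 to 0.068, and r was -0.103 to 0.0894 for Col2a1-Col11a1, -0.157 to 0.0764 for Col2a1-Col11a2 and -0.160 to 0.0479 for Col11a1-Col11a2. Col6a6 and Col10a1 had no value under a mean of at least 50. No paired analysis was possible because the labels give no replicate numbers that the groups share. Counting error limits Col10a1 and the other low genes named above.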

Other observations

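The 3 negative calls among collagen pairs were Col15a1 with Col24a1, Col25a1 with Col28a1 (r = -0.504, rho -0.352, adjusted p 0.0420 and 0.223) and Col10a1 with Col4a4 (r = -0.496, rho -0.468, adjusted p 0.0465 and 0.0773), and the last rests on a gene whose spread is mostly counting error. Col28a1 had no positive call with any collagen gene, with r of at most 0.306. Col13a1, a membrane collagen of the neuromuscular junction, and Col22a1, a collagen of the junction of muscle and tendon, had r = 0.722 with each other (rho 0.686, adjusted p 0.0009 and 0.00277), and neither was called with the skeletal muscle score. Both were called with the meningeal score, Col13a1 with r = 0.673 (adjusted p 0.00363) and Col22a1 with r = 0.679 (adjusted p 0.00451).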
